A study of Mus musculus with 2 samples.

Results

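Interferon-stimulated genes with antiviral effector roles were followed across the GR1+ cells of 2 pooled samples of mouse mammary tumors, namely Ifit1, Ifit2, Ifit3, Ifit3b, Isg15, Isg20, Rsad2, Cmpk2, Usp18 and Bst2. These 10 genes, of 32285 listed, were chosen by symbol, with earlier results of these data known, and all 10 had UMIs in both libraries. 4T1 is a mammary carcinoma line of BALB/c mice. The non-responding tumors came from its parental form (4T1P), which does not respond to anti-PD1, and the responding tumors from a mutagenized form that does (4T1M). The study calls 4T1M a clone, although its methods describe the mutagenized cells as multiclonal. The tumors were grown orthotopically in female BALB/c mice. Their age was 6 to 8 weeks by the labels, whereas the methods of the study give an older range at injection. No antibody had been given when the cells were taken. GR1+ cells (Ly6G or Ly6C positive, hence neutrophils and monocytic cells together) were sorted with magnetic beads. The labels give 5 mice pooled into each sample, whereas a figure legend of the study gives a smaller number, and each condition is 1 droplet library. The spread between mice therefore cannot be estimated, and no test between 4T1P and 4T1M was possible.

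Type I interferons bind a receptor whose JAK kinases switch on transcription factors that bind the interferon-stimulated response element (ISRE) in the promoters of many antiviral genes. The products act at different steps of viral growth. IFIT proteins bind viral RNA, ISG15 is a ubiquitin-like protein that is conjugated to other proteins, viperin (Rsad2) makes a chain-terminating nucleotide, and tetherin (Bst2) holds budding virions at the cell surface.

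The promoters of 9 of the 10 genes were matched in RefSeq (GRCm38.p6), each as 250 bases before to 50 after a start site. The core of the ISRE was searched as GAAANNGAAA on both strands, where it reads TTTCNNTTTC on the other, and overlapping matches were counted. It was present in 6 of the 9 genes, namely Ifit1, Ifit3, Ifit3b, Isg15, Rsad2 and Bst2, against 3.44% of the 32851 promoters and 3.99% of the 27025 genes of the same table. No match was found in the windows of Ifit2, Isg20 and Cmpk2. The stretches holding the matches are shown because they are what these genes share in sequence. They lie upstream of the annotated genes, read 5′ to 3′ on the strand of the gene, with the matches in capitals.
Ifit1 (chr19:34640770-34640828, plus strand): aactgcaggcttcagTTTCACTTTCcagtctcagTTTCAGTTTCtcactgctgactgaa
Ifit3 (chr19:34583358-34583431, plus strand): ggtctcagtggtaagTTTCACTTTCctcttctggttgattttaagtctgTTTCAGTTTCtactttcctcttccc
Ifit3b (chr19:34607754-34607827, plus strand): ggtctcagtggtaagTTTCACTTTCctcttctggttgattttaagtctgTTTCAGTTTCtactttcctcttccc
Isg15 (chr4:156200860-156200911, minus strand): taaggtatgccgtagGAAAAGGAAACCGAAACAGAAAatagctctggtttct
Rsad2 (chr12:26456548-26456587, minus strand): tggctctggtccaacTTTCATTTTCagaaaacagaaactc
Bst2 (chr8:71537572-71537617, minus strand): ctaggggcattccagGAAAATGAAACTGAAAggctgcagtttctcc
Isg15 held 3 overlapping matches, Ifit1, Ifit3, Ifit3b and Bst2 held 2 each, and Rsad2 held 1. The stretches of Ifit3 and Ifit3b are identical letter for letter, and the coding sequences of these neighbors agreed at 1198 of 1209 bases (99.1%). Reads that fit both Ifit3 and Ifit3b cannot be assigned, so the counts of both genes are uncertain. Usp18 is overlapped on the opposite strand by Gm44148.

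The 4T1P library held 2947 barcodes with 21855657 UMIs and the 4T1M library 5004 barcodes with 24303957 UMIs, of which 1726 and 3461 cells had 500 to 5000 genes and at most 10% mitochondrial UMIs. Neutrophils were the cells with S100a8 and S100a9 at 1.5% of UMIs or more and C1qa, C1qb, C1qc and Apoe under 0.5% (612 cells in 4T1P and 1686 in 4T1M). Macrophages were those with S100a8 and S100a9 under 1.5% and at least 0.3% of their UMIs from C1qa, C1qb, C1qc, Apoe, Csf1r, Cd68 and Fn1 (798 and 976 cells), and the other 316 and 799 cells met neither rule. Sums of markers that the rule had not used followed the names, but not every gene did. The 10 neutrophil markers, such as Csf3r and Cxcr2, summed to 18017 and 15117 counts per 1000000 UMIs of the class (CPM) in neutrophils of 4T1P and 4T1M, against 337 and 478 CPM in macrophages. The 10 monocyte and macrophage markers, such as Adgre1 and Mrc1, summed to 17341 and 12909 CPM in macrophages and to 6165 and 5868 CPM in neutrophils. Lyz2 alone made up 10401 and 6760 CPM of the macrophage sums. Cd14 was higher in neutrophils (3084 and 2979 CPM) than in macrophages (1288 and 1299 CPM). Itgam was higher in macrophages in 4T1P (553 against 425 CPM) and in neutrophils in 4T1M (514 against 407 CPM). The median depth was 3055 and 2958 UMIs per neutrophil and 9727 and 9214 per macrophage. The median mitochondrial share was 2.76% of UMIs in neutrophils of 4T1P and 1.81% in those of 4T1M, and 4.50% and 4.22% in macrophages. S100a8 and S100a9 made up a median of 10.04% and 7.51% of the UMIs of a neutrophil. The part of these inequalities in the results was not tested. Of the barcodes, 5 occurred in both libraries, 3 of them among the retained cells.

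In both classes, the sum of the 10 genes was higher in 4T1M. They amounted to 1753 CPM in neutrophils of 4T1P and 2721 CPM in those of 4T1M, and to 956 and 2116 CPM in macrophages. In neutrophils, 7 of the 10 genes were past a 1.5-fold higher level in 4T1M, none was past it in the other direction, and the median log2 ratio of 4T1M over 4T1P was 0.96. Of all 9994 genes with at least 10 UMIs in neutrophils, 14.3% were past 1.5-fold higher, 9.93% were past 1.5-fold lower, and the median log2 ratio was 0.03. In macrophages, 9 of the 10 genes were past 1.5-fold higher with a median log2 ratio of 1.07, against 7.37% of 12352 genes (and 7.93% past it in the other direction) and a median of -0.03. The genes that stayed within 1.5-fold were Isg15, Isg20 and Bst2 in neutrophils and Ifit2 in macrophages. All intervals given are 95% intervals of UMI or cell counts. They cover counting error only and are too narrow for that purpose as well, since UMIs of 1 cell are not independent.

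**Figure D1:**
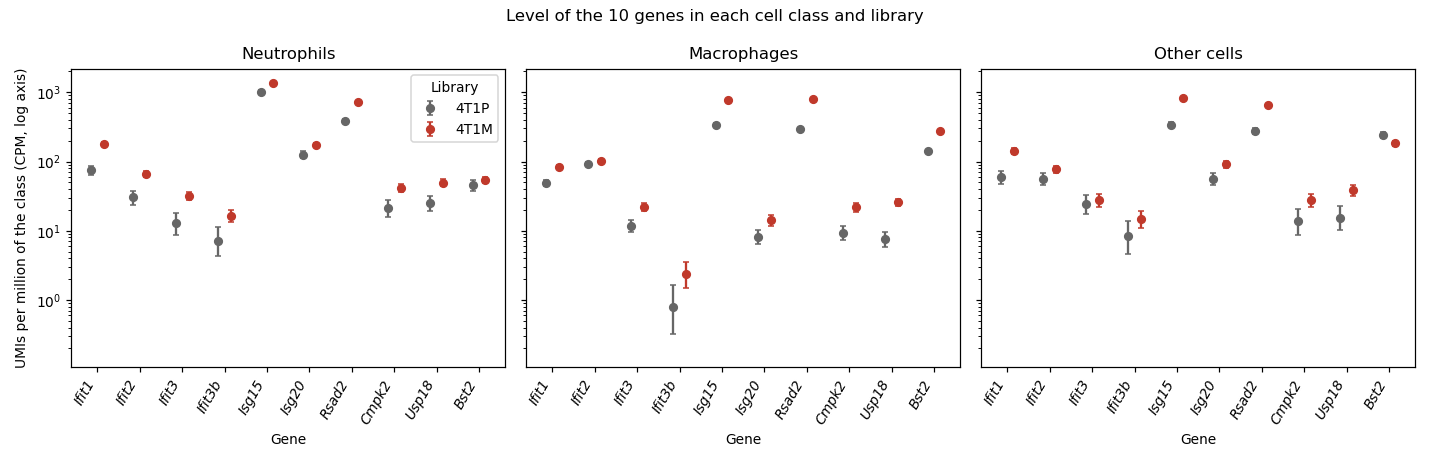
Level of each gene in CPM on a log axis, for neutrophils, macrophages and the other cells, in 4T1P (grey) and 4T1M (red). Points are UMIs scaled by the total of the class and bars are exact Poisson 95% intervals of 1 library, and the point for 4T1M lies above that for 4T1P for every gene except Bst2 in the other cells.

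The IFIT genes, which encode tetratricopeptide-repeat proteins that bind viral RNA, lie within 99.3 kb on chromosome 19, from Ifit2 to Ifit1. Ifit1, which recognizes the cap of foreign mRNA, stood at 74.7 CPM in neutrophils of 4T1P (187 UMIs) and at 179 CPM in those of 4T1M (1177 UMIs), a log2 ratio of 1.26 (interval 1.04 to 1.49). In macrophages it stood at 48.6 and 84.1 CPM, a log2 ratio of 0.79 (0.62 to 0.97). The neutrophil ratio was the higher, and the intervals of the classes did not overlap. Ifit2 differed more sharply between the classes. In neutrophils it was at 30.4 CPM in 4T1P and 66.1 CPM in 4T1M, a log2 ratio of 1.11 (0.77 to 1.49). In macrophages it was at 92.96 CPM in 4T1P and 101 CPM in 4T1M, a log2 ratio of 0.12 (-0.02 to 0.26). Of its 815 UMIs in macrophages of 4T1P, 96 came from 1 cell, and the log2 ratio was 0.25 without the highest cell of each library. Among macrophages with at most 5% mitochondrial UMIs it was 0.70, past the 1.5-fold limit, so that the absence of a difference in Ifit2 depends on the cells kept.

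Ifit3, which binds Ifit1 and stabilizes it in human cells, was at 12.8 CPM in neutrophils of 4T1P and 31.6 CPM in those of 4T1M (log2 ratio 1.29, interval 0.76 to 1.89). Only 371 of the 9994 neutrophil genes had a higher ratio. Its sum in 4T1P was 32 UMIs, of which 14 came from 1 cell, and without the highest cell of each library the log2 ratio was 1.99. In macrophages Ifit3 was at 11.9 and 22.05 CPM (0.89, interval 0.55 to 1.25), and with the mean of per-cell CPM the log2 ratio was 0.49, within 1.5-fold. The near copy Ifit3b was at 7.19 and 16.3 CPM in neutrophils (1.14, interval 0.45 to 1.99). In macrophages it was at 0.798 and 2.35 CPM, from 7 and 22 UMIs, so that the interval of its log2 ratio of 1.49 ran from 0.28 to 3.03. Among macrophages with at most 5% mitochondrial UMIs it was 0.26. In these counts the copies differed unequally between the classes, although reads that fit both cannot be assigned. Of the 7 Ifit3b UMIs in macrophages of 4T1P, 4 came from 1 cell. The level of Ifit3b in neutrophils was 8.64 times that in macrophages in 4T1P and 6.78 times in 4T1M, whereas for Ifit3 the corresponding values were 1.09 and 1.43.

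Isg15, the ubiquitin-like modifier, and Usp18, the protease that removes it and also dampens signaling at the interferon receptor, were both further apart between the libraries in macrophages. Isg15 stood at 1025 CPM in neutrophils of 4T1P and 1373 CPM in those of 4T1M, a log2 ratio of 0.42 (0.36 to 0.49), within 1.5-fold. In macrophages it stood at 342 and 774 CPM, a log2 ratio of 1.18 (1.12 to 1.24), and 276 of the 12352 macrophage genes had a higher ratio. The level of Isg15 in neutrophils was thus 2.996 times that in macrophages in 4T1P and 1.77 times in 4T1M. Usp18 was at 25.2 and 49.5 CPM in neutrophils (log2 ratio 0.97, interval 0.58 to 1.39) and at 7.53 and 25.7 CPM in macrophages (1.76, interval 1.37 to 2.19). In macrophages only 91 genes had a higher ratio than Usp18, although its intervals in the classes overlapped by a small margin.

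Rsad2, which encodes viperin, and Cmpk2, a mitochondrial nucleotide kinase, are neighbors on chromosome 12 that are read away from each other, with annotated start sites 12.8 kb apart. Both were higher in 4T1M in each class. Rsad2 stood at 386 CPM in neutrophils of 4T1P (965 UMIs) and 735 CPM in those of 4T1M (4836 UMIs), a log2 ratio of 0.93 (0.83 to 1.03). In macrophages it stood at 294 CPM (2577 UMIs) and 796 CPM (7433 UMIs), a log2 ratio of 1.44 (1.37 to 1.502). In CPM, the order of the classes was therefore not the same in the libraries, but this order depends on the scaling by class totals. The log2 ratio of macrophages over neutrophils was -0.39 in 4T1P and 0.11 in 4T1M for Rsad2. Over all genes its median was 1.13 and 1.03, so Rsad2 lay below the median in both libraries. Rsad2 was 1.31 times as high in neutrophils as in macrophages in 4T1P and 0.924 times as high in 4T1M. Cmpk2 was at 21.2 and 41.3 CPM in neutrophils (0.95, interval 0.54 to 1.42) and at 9.35 and 21.8 CPM in macrophages (1.22, interval 0.85 to 1.61), with neutrophils the higher class in both libraries.

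Isg20, a 3′ to 5′ exonuclease that degrades single-stranded RNA, was the gene of the group most unequal between the classes. It stood at 126 and 175 CPM in neutrophils and at 8.21 and 14.1 CPM in macrophages, 15.2 times as high in neutrophils in 4T1P and 12.3 times in 4T1M. Between the libraries its log2 ratio was 0.47 (0.29 to 0.66) in neutrophils and 0.78 (0.36 to 1.22) in macrophages, where it was 0.55, within 1.5-fold, when cells with more than 5000 genes were kept. Bst2 (tetherin) was unequal in the other direction. It stood at 141 and 275 CPM in macrophages, a log2 ratio of 0.96 (0.87 to 1.06), and at 45.5 and 54.0 CPM in neutrophils, 0.24 (-0.06 to 0.56). The macrophage level of Bst2 was 3.08 times the neutrophil level in 4T1P and 5.08 times in 4T1M. Of all genes compared between the classes, 62.1% in 4T1P and 60.4% in 4T1M were past 1.5-fold higher in CPM in macrophages, and 16.5% and 17.5% were past it in neutrophils.

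The neutrophil value of Bst2 rested on 1 cell. Of its 114 UMIs in 4T1P, 49 came from a cell that also held 102 UMIs of 6 plasmacytoid dendritic cell markers (Siglech, Ccr9, Tcf4, Klk1, Cox6a2 and Ly6d), and plasmacytoid dendritic cells are known to carry Bst2. Those markers summed to 62.7 CPM in neutrophils of 4T1P and 17.6 CPM in those of 4T1M, and Ly6d was at 0 in both. Without cells with 3 or more UMIs of the markers (4 and 5 neutrophils), the log2 ratio of Bst2 was 1.05 (0.66 to 1.48), which would make it the eighth gene past 1.5-fold in neutrophils. In neutrophils without any UMI of C1qa, C1qb, C1qc or Apoe, in contrast, the ratio was -1.23. That setting retained 248 of 612 and 719 of 1686 neutrophils, with 74 and 87 Bst2 UMIs, and the cell with 49 UMIs was among them. The marker-bearing cell was 1 of 612, and the other 9 genes did not have their highest cell there.

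To describe how the UMIs were spread over cells, cells were thinned to 1000 UMIs each, which left out 4 neutrophils of 4T1M and 26 and 37 macrophages, and the log2 ratio of the mean was split into the ratio of the shares of cells with a UMI and the ratio of UMIs per such cell. The shares made up the larger part in 10 of 10 genes in neutrophils and in 9 of the 9 genes of macrophages that could be split. The median was 0.89 for the share and 0.07 for UMIs per positive cell in neutrophils, and 0.97 and 0.03 in macrophages. For the 8 genes other than Isg15 and Rsad2, thinned cells held on average at most 0.267 UMIs. At such levels the UMIs per positive cell lie near their floor of 1, and the share carries most of any difference by construction, so that nothing is read from their split. For Isg15, at 1.25 and 1.58 UMIs per neutrophil, the parts were 0.29 for the share and 0.06 for UMIs per positive cell, and at 0.293 and 0.616 UMIs per macrophage they were 0.88 and 0.20. For Rsad2, at 0.443 and 0.834 UMIs per neutrophil, they were 0.84 and 0.08. At 0.249 and 0.669 UMIs per macrophage they were 0.98 and 0.45. The macrophage mean of Rsad2 in 4T1P also lay below 0.267, so that this split shares the limit. Ifit3b could not be split in macrophages, since 0 of 772 thinned cells of 4T1P and 3 of 939 of 4T1M had a UMI. Before thinning, 0.501% and 2.05% of macrophages had one.

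**Figure D2:**
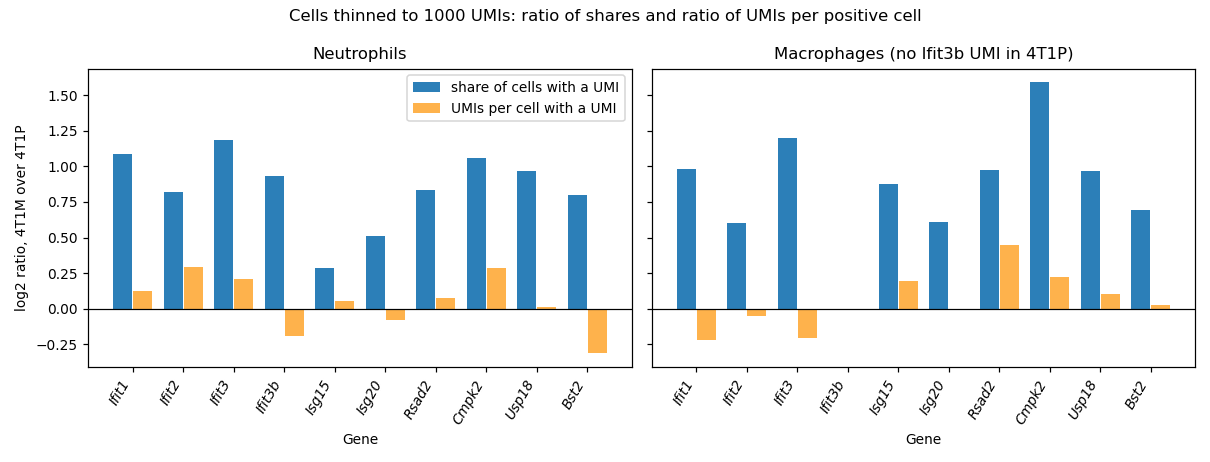
Log2 ratio of 4T1M over 4T1P for the share of cells with a UMI (blue) and for UMIs per cell with a UMI (orange), per gene, in neutrophils and macrophages thinned to 1000 UMIs. The blue bar is the taller in every gene drawn, from 0.29 (Isg15) to 1.19 (Ifit3) in neutrophils, and orange bars lie between -0.31 and 0.45; for genes at a low mean this follows from the sparse counts.

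Cells with an Isg15 UMI made up 42.8% of neutrophils in 4T1P (262 of 612, exact binomial interval 38.9% to 46.8%) and 52.3% in 4T1M (879 of 1682, 49.8% to 54.7%). Each held 2.91 and 3.03 UMIs per 1000. Among macrophages, 18.9% (16.2% to 21.9%) and 34.7% (31.7% to 37.9%) had an Isg15 UMI, with 1.55 and 1.77 UMIs each. The neutrophil difference was thus 9.45 percentage points and the macrophage difference 15.8 points, although neutrophils held more of the transcript. Before thinning, the shares were 62.4% and 72.3% of neutrophils and 54.6% and 69.3% of macrophages, with macrophages the deeper class.

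Rsad2 was present in 16.0% (13.2% to 19.2%) and 28.6% (26.4% to 30.8%) of thinned neutrophils and in 14.1% (11.7% to 16.8%) and 27.8% (24.95% to 30.8%) of thinned macrophages. It was the gene with the largest part from UMIs per positive cell, in macrophages, where a positive cell held 1.76 UMIs in 4T1P and 2.41 in 4T1M (log2 ratio 0.45). The mean in 4T1P was low there (0.249 UMIs per macrophage), at a level where no split was read for the other genes. Cells with 5 or more Rsad2 UMIs per 1000 numbered 4 of 772 macrophages in 4T1P and 32 of 939 in 4T1M. In neutrophils, UMIs per positive cell differed little (2.77 and 2.91).

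Ifit1 was present in 5.39% (3.74% to 7.49%) and 11.5% (9.99% to 13.1%) of neutrophils and in 3.24% (2.11% to 4.74%) and 6.39% (4.91% to 8.15%) of macrophages. Bst2 was present in 13.7% (11.4% to 16.4%) and 22.3% (19.6% to 25.1%) of macrophages, with 1.18 and 1.20 UMIs each. In neutrophils it was present in 2.29% (1.26% to 3.81%) and 3.98% (3.10% to 5.03%) of cells, whose intervals overlapped. The share intervals of 4T1P and 4T1M were apart for 4 genes in each class, namely Ifit1, Isg15, Isg20 and Rsad2 in neutrophils and Ifit1, Isg15, Rsad2 and Bst2 in macrophages. In neutrophils these were the 4 genes of the group with the highest levels. How often the share intervals were apart over all genes was not computed, so nothing is read from these counts. For the other 6 genes of each class the share intervals overlapped, which does not show that the shares are alike.

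The transcripts were unevenly spread over cells. The variance of thinned Rsad2 UMIs was 4.49 and 5.63 times the mean in neutrophils and 2.43 and 4.34 times in macrophages, and for Isg15 it was 4.54 and 4.202 times in neutrophils. Summed over the 10 genes, the highest 10% of neutrophils held 57.9% of the UMIs in 4T1P and 51.8% in 4T1M, and the highest 10% of macrophages 55.4% and 45.3%. Cells without any of the 10 genes made up 48.0% (44.0% to 52.1%) of neutrophils in 4T1P and 35.9% (33.6% to 38.2%) in 4T1M. In macrophages the corresponding shares were 59.6% (56.0% to 63.1%) and 37.9% (34.8% to 41.1%). At the upper end, 3 or more of the genes were found in 8.17% (6.12% to 10.6%) and 15.6% (13.9% to 17.5%) of thinned neutrophils and in 3.50% (2.32% to 5.05%) and 10.5% (8.65% to 12.7%) of thinned macrophages. Without thinning, 3 or more were found in 19.3% and 35.6% of neutrophils and in 32.3% and 50.7% of macrophages. The order of the classes was then reversed. In thinned cells the shift between the libraries thus covered both ends, with fewer cells that held none of the genes and more that held several.

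**Figure D3:**
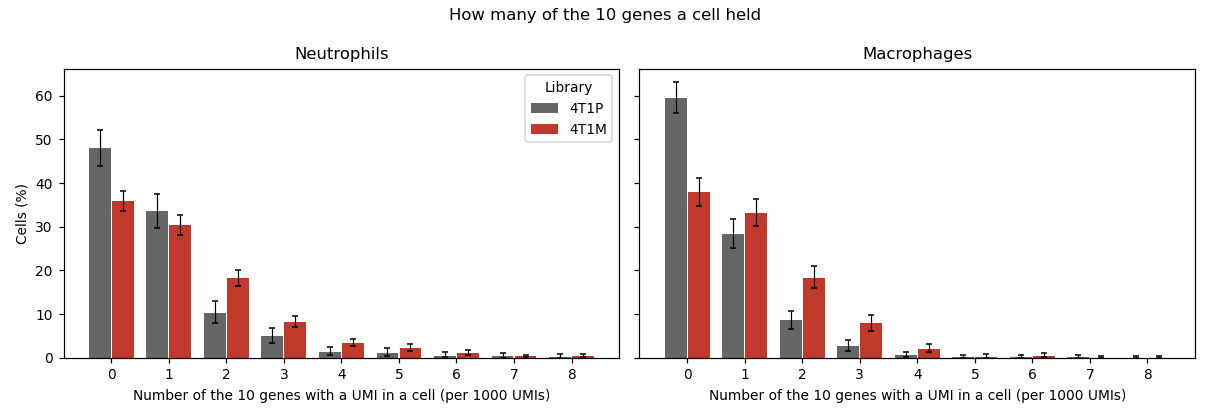
Percentage of cells with 0 to 8 of the 10 genes among 1000 UMIs, in neutrophils and macrophages of 4T1P (grey) and 4T1M (red), with exact binomial 95% intervals. Cells with none make up 48.0% and 35.9% of neutrophils and 59.6% and 37.9% of macrophages in 4T1P and 4T1M, and cells with 2 or more are the more frequent in 4T1M.

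To see whether the added positive cells were those rich in the other genes, cells were binned by their thinned UMIs of the other 9 genes (0, 1 to 2, 3 to 5, or 6 and more). Among neutrophils with none of the other 9, Isg15 was found in 35.0% (30.6% to 39.5%) in 4T1P and 36.8% (33.7% to 39.9%) in 4T1M. Isg15 thus differed little in neutrophils that lacked the others, and 5.83 of its 9.45 points came from the different numbers of cells in the bins. In macrophages the same bin held Isg15 in 14.7% (11.8% to 17.9%) and 24.7% (20.9% to 28.9%) of cells, and 11.4 of the 15.8 points arose within bins.

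Rsad2 took most of its difference from within bins in both classes. Among neutrophils with 3 to 5 UMIs of the other 9 genes it was found in 24.6% (14.8% to 36.9%) in 4T1P and 49.0% (42.9% to 55.3%) in 4T1M, while with 6 or more the shares were 73.6% (39 of 53 cells) and 73.6% (148 of 201 cells). Within bins arose 8.84 of its 12.6 points in neutrophils and 8.84 of its 13.7 points in macrophages. Each gene is left out of its own bins, so the bins of Rsad2 and Isg15 are not the same. Isg15 (log2 ratio 0.42) made up 58.5% and 50.5% of the UMIs of the 10 genes in neutrophils of 4T1P and 4T1M. It counts in the bins of Rsad2, whereas Rsad2 (0.93) counts in those of Isg15. The splits of these genes therefore cannot be compared, and the part of the bin choice in them was not tested. Bst2 in macrophages hardly varied with the other genes. It was found in 13.2% (10.4% to 16.4%) of macrophages of 4T1P that lacked the other 9 and in 21.4% (17.7% to 25.5%) of those of 4T1M, and in 14.7% and 20.7% of those with 3 to 5 UMIs. Within bins arose 8.19 of its 8.53 points.

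**Figure D4:**
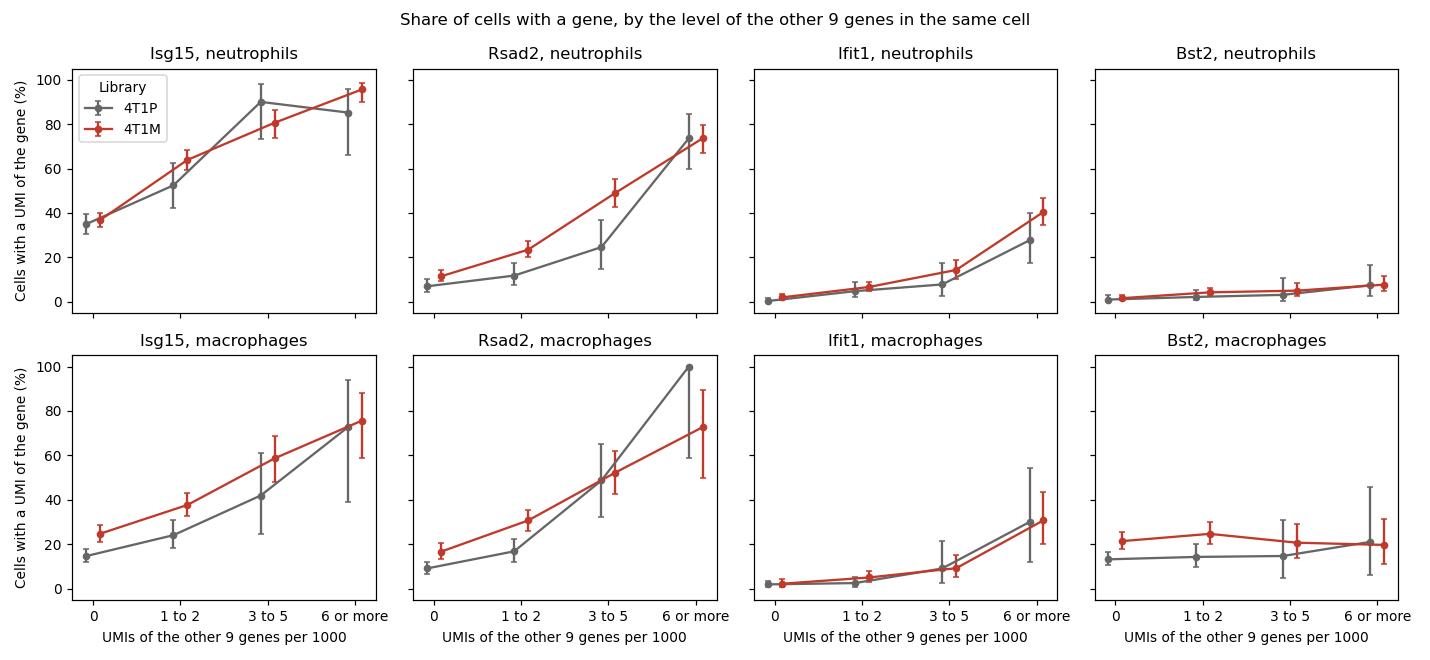
Percentage of cells with a UMI of Isg15, Rsad2, Ifit1 or Bst2 by the number of UMIs of the other 9 genes per 1000 UMIs of the same cell, in neutrophils (top) and macrophages (bottom) of 4T1P (grey) and 4T1M (red), with exact binomial 95% intervals. Isg15, Rsad2 and Ifit1 are more frequent in cells with 3 or more UMIs of the others than in cells with none, whereas Bst2 in macrophages stays between 13.2% and 24.7%; the bin of 6 or more holds few macrophages of 4T1P, 7 for Rsad2.

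Across cells of 1 library, the genes were correlated within the limits of sparse counts. The Pearson coefficient of log(1 + thinned UMIs) between Isg15 and Rsad2 was 0.41 in 612 neutrophils of 4T1P and 0.49 in 1682 of 4T1M, and 0.27 and 0.35 in 772 and 939 macrophages. Between Ifit1 and Rsad2 it was 0.36 and 0.48 in neutrophils and 0.28 and 0.27 in macrophages. These cells share a library, a depth and the pooled mice, so the coefficients are descriptive. Bst2 had coefficients of 0.09 and 0.13 with the sum of the other 9 genes in neutrophils and of 0.04 and 0.01 in macrophages, which are too weak to be read in counts of this kind.

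**Figure D5:**
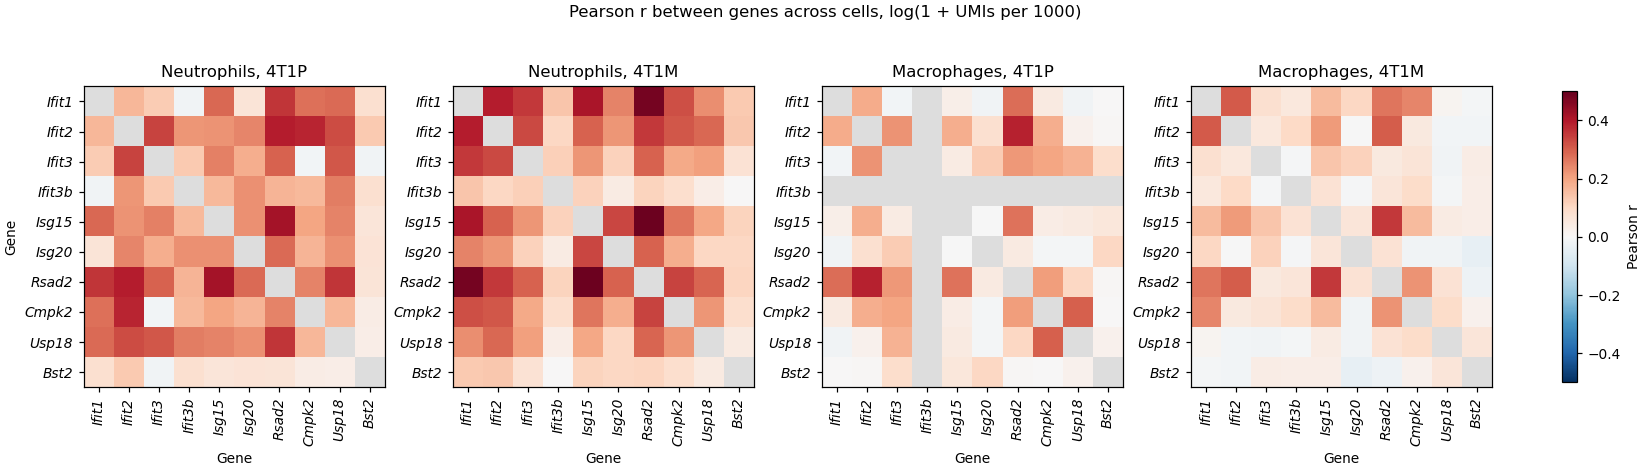
Pearson coefficients between each pair of the 10 genes across thinned cells, for neutrophils and macrophages of 4T1P and 4T1M, on a scale from -0.5 (blue) to 0.5 (red); grey marks the diagonal and Ifit3b in macrophages of 4T1P, where it had no UMI. Neutrophils show the stronger coefficients, led by Isg15 with Rsad2 (0.41 and 0.49), and the row of Bst2 is pale in each panel.

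Outside the group, the genes most like the sum of the 10 across neutrophils, ranked among 3288 genes by the lower coefficient of the libraries, were Slfn5, Slfn4, Parp14, Trim30a, Ifi47, Gbp2b, Rtp4, Oasl1, Gbp2 and Ddx60, with lower coefficients from 0.39 to 0.27. Genes alike across cells did not all have a like ratio between libraries. All of them had log2 ratios above 0, from 0.24 (Ifi47, interval 0.03 to 0.45) upward. Past 1.5-fold higher were Slfn5, Parp14 (0.60), Rtp4 (0.78), Oasl1 (0.84) and Ddx60 (0.76), where 14.3% of all neutrophil genes were. Slfn5 had a log2 ratio of 1.48 (1.27 to 1.70) and a thinned share of 6.05% and 16.8% of neutrophils, whereas Slfn4 had a log2 ratio of 0.25 (0.17 to 0.33) and was found in 43.0% and 44.5%. In macrophages, ranked among 4787 genes, they were Ifih1, Ccl5, Ccl4, Cxcl10, Herc6, Tnf, Cybb, Oasl2, Ppp1r15a and Cd74, with lower coefficients from 0.26 to 0.17. Of these, Ccl5 (log2 ratio 1.27), Herc6 (1.23) and Oasl2 (1.09) were past 1.5-fold higher in 4T1M, where 7.37% of all macrophage genes were. Cxcl10, a chemokine of T cells, was at -0.05 (-0.12 to 0.03).

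Of the 13 interferon ligand genes, Ifnb1 had the most UMIs in macrophages. Ifnb1, the gene of interferon beta, was at 66.0 CPM in macrophages of 4T1P and 59.2 CPM in those of 4T1M (log2 ratio -0.16, interval -0.33 to 0.01), with a UMI in 21.2% and 18.8% of unthinned macrophages. Of the other 12 ligand genes, 10 were at 0 in macrophages of both libraries, and Ifna2 (10 and 3 UMIs) was past 1.5-fold lower. In neutrophils Ifnb1 had 3 UMIs in 4T1P and 71 in 4T1M, but 47 of the latter were in 1 cell and only 10 of 1686 cells had any, and the other 12 ligand genes were at 0 in neutrophils. Of 13 receptor and signaling genes, 2 were past 1.5-fold higher in neutrophils, namely the kinase genes Jak2 (0.81) and Tyk2 (0.89, interval -0.22 to 2.38, from 7 and 36 UMIs), a share close to the 14.3% of all neutrophil genes, and those past it in macrophages included Irf7, Stat2 (0.98) and Jak2 (0.67). Irf7, a transcription factor that amplifies the interferon response, was at 91.1 and 132 CPM in neutrophils (log2 ratio 0.53) and at 61.9 and 186 CPM in macrophages (1.58, interval 1.45 to 1.73). Tyk2 and the macrophage value of Jak2 were chosen after their values were seen. The receptor genes Ifnar1 and Ifnar2, also chosen then, had log2 ratios of -0.13 and -0.06 in neutrophils, and Irf3, chosen likewise, was the gene of this list past 1.5-fold lower there (27 and 38 UMIs).

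Among nucleic acid sensors, 3 of 7 genes with enough UMIs were past 1.5-fold higher in neutrophils (Ifih1, Zbp1 and Tlr7) and 5 of 10 in macrophages (Zbp1, Dhx58, Tlr3, Ddx58 and Tlr9), where 14.3% and 7.37% of all genes were. The lists are short, and Tlr7 in neutrophils rested on 15 and 61 UMIs (0.59, interval -0.20 to 1.55). Tlr9 in macrophages rested on 2 and 14 UMIs (2.44, interval 0.59 to 5.90). Zbp1, a sensor of Z-form nucleic acid, was at 70.7 and 136 CPM in neutrophils (0.94) and at 62.2 and 127 CPM in macrophages (1.03). Ifih1 (MDA5), a sensor of long double-stranded RNA, had a log2 ratio of 1.09 in neutrophils and 0.54 in macrophages. Tlr7, Tlr9, Ddx58 in macrophages and Cgas were named after their values were seen, and Cgas was past 1.5-fold lower in neutrophils (29 and 32 UMIs). Of 5 genes for the attachment of ISG15, the activating enzyme Uba7 (1.09, from 25 and 142 UMIs) and the ligase Herc6 (0.66) were past 1.5-fold higher in neutrophils, and Herc6 (1.23), the conjugating enzyme Ube2l6 (0.83) and Uba7 (0.64) in macrophages. The shares of all genes were again 14.3% and 7.37%. Within 1.5-fold were Trim25 (0.29 and 0.03) and Arih1 (-0.17 and -0.01) in neutrophils and macrophages, and Ube2l6 (0.27) in neutrophils. Arih1 was named after its values were seen.

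Of 15 other antiviral effectors, 12 were listed in the data, without Oas1b, Mx1 and Mx2, and all 12 had enough UMIs. Past 1.5-fold higher were 7 in neutrophils and 7 in macrophages, against 14.3% and 7.37% of all genes. The median log2 ratios of the 12 were 0.72 and 0.77, against 0.03 and -0.03 over all genes. Intervals lay above 0 for 6 of the 12 in neutrophils and 10 in macrophages. The share of all genes with intervals above 0 is not given beside them, so nothing is read from these 2 counts. Oas1c was past 1.5-fold in neutrophils from 3 and 17 UMIs (0.93, interval -0.68 to 3.52). Oasl2, of the oligoadenylate synthetase family, had log2 ratios of 1.02 and 1.09, Oasl1 had 0.84 in neutrophils, and Oas3 had 1.58 and Oas1a 1.18 in macrophages. Of the other interferon-stimulated genes with enough UMIs, 12 of 24 were past 1.5-fold higher in neutrophils (median 0.58) and 20 of 26 in macrophages (median 0.92). The shares of all genes were again 14.3% and 7.37%. None of this list was past it in the other direction in either class. Ly6e (1.36 and 1.51) and Xaf1 (1.36 and 1.33) were similar in both, and Ifi27l2a was at 273 and 644 CPM in neutrophils (1.23).

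Transcripts freed from 1 class could enter droplets of the other. S100a8 and S100a9 in macrophages amounted to 0.343% of their neutrophil level in 4T1P and 0.835% in 4T1M. If all of it were neutrophil RNA carried along with its other transcripts, it would bring 11.5 of the 774 CPM of Isg15 in macrophages of 4T1M (1.48%) and 0.771% of their Rsad2, but 10.3% of their Isg20 and 5.76% of their Ifit3b. C1qa, C1qb and C1qc in neutrophils amounted to 2.40% and 2.16% of their macrophage level. The same reckoning gives 1.22% of Isg15, 2.34% of Rsad2 and 11.01% of Bst2 in neutrophils of 4T1M. The marker genes of this reckoning are also used in the class rule, which leaves out cells with more of them. The values are therefore limited by the rule and give no upper limit for the carried RNA. The make-up of the transcripts also differed between the classes, with Isg15 accounting for 58.5% and 50.5% of the UMIs of the 10 genes in neutrophils and 35.8% and 36.6% in macrophages, and Bst2 for 2.60% and 1.98% against 14.7% and 12.98%. Red blood cell genes (Hba-a1, Hba-a2, Hbb-bs, Hbb-bt and Alas2) moved with the group in neutrophils, at 4.39 CPM in 4T1P and 152 CPM in 4T1M, with Alas2 at 0 in both and 796 of the 998 UMIs of 4T1M in 1 cell. In macrophages they stood at 430 and 424 CPM. Tumor epithelial markers such as Epcam and Krt18 summed to 74.3 and 13.5 CPM in neutrophils and to 11.1 and 6.21 CPM in macrophages. T or NK cell markers summed to 30.8 and 24.5 CPM in neutrophils and to 6.50 and 7.28 CPM in macrophages, and B or plasma cell markers to 12.4 and 17.9 CPM and to 4.45 and 10.4 CPM. Cd3d alone made up 73 of the 77 and 148 of the 161 T or NK marker UMIs in neutrophils. In 4T1M, Jchain made up 75 of 118 B or plasma marker UMIs in neutrophils and 45 of 97 in macrophages. Such sums do not show that cells of these types were present. The part of all these transcripts in the differences was not tested.

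In the 316 and 799 cells that met neither rule, 7 of the 10 genes were past 1.5-fold higher in 4T1M, where 9.33% of 11349 genes were and 23.1% were past it in the other direction, with a median log2 ratio of 0.89 against -0.21 over all genes. Isg15 was at 340 and 833 CPM (1.29, interval 1.16 to 1.42) and Rsad2 at 275 and 645 CPM (1.23, interval 1.09 to 1.38). These cells are a mixture, and 34 of 316 and 137 of 799 lay within 1% to 2% of S100a8 and S100a9, near the limit that separates neutrophils. Their marker sums were unequal between 4T1P and 4T1M, at 1988 and 3407 CPM for neutrophil markers, 478 and 1217 CPM for B or plasma cell markers, 53.0 and 203 CPM for tumor epithelial markers, 1285 and 603 CPM for T or NK cell markers, 621 and 341 CPM for plasmacytoid dendritic cell markers and 2013 and 1158 CPM for red blood cell genes. The part of these inequalities in the ratios was not tested. Ifit3 was at 24.4 and 27.5 CPM in them (0.16, interval -0.37 to 0.74), and Bst2 was lower in 4T1M (-0.41, interval -0.59 to -0.22).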

How the data were processed

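The authors aligned reads to mm10 (GRCm38) with Cell Ranger and deposited the raw counts of UMIs for each gene and barcode, not normalized. The submitters' processing notes name Cell Ranger 4.0.0, whereas the methods name a later version. 1 library per condition was analysed, and no column of another sample was present. The 10 genes, the gene lists and the class rule were chosen with earlier results of these data known. Doublets were not removed.

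UMIs of a class were added up within a library and scaled by the class total to CPM, with exact Poisson intervals. Shares of cells have exact binomial (Clopper-Pearson) intervals. Log2 ratios were computed with 0.5 UMIs added to each sum, with exact conditional intervals, for every gene whose UMIs in the libraries came to 10 or more. The code was tried on simulated independent Poisson counts, which the intervals assume. That trial cannot show how well the intervals cover the uneven counts of these cells. Cells were thinned without replacement to 1000 UMIs (seed 1). No p-value was computed. Depth was 2502947 and 6580005 UMIs in neutrophils and 8767210 and 9343315 in macrophages of 4T1P and 4T1M, so genes at a few CPM have wide intervals, in 4T1P neutrophils most of all.

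Named genes were the 10 genes, up to 3 per list with the largest absolute log2 ratio in either class among those with at least 100 UMIs, the 10 most alike outside the group among genes in at least 2% of thinned cells, and markers that touch a result. 1 gene of the signaling list is not reported here. Promoters came from RefSeq and gene positions from GENCODE, both on GRCm38. TMM factors (edgeR 4.0.16) and size factors (DESeq2 1.42.0, R 4.3.3) were used for scaling alternatives only. Python 3.11.15, numpy 2.4.6, scipy 1.17.1, pandas 2.3.3 and Biopython 1.88 were used.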

Additional observations from a re-analysis of the deposited data

Results flagged for a closer look

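Bst2 was higher in 4T1M in macrophages (log2 ratio 0.96) and lower in the cells outside both classes (-0.41), with intervals on opposite sides of 0, and this difference between classes was not tested, as each rests on 1 library per condition. Of those other cells, 30 of 316 in 4T1P (9.49%) and 35 of 799 in 4T1M (4.38%) held 3 or more UMIs of the plasmacytoid dendritic cell markers. They contributed 286 of 406 and 310 of 616 Bst2 UMIs, at 902 and 692 CPM. In the remaining other cells Bst2 was at 88.2 CPM (interval 73.1 to 105) in 4T1P and 104 CPM (93.03 to 117) in 4T1M, a log2 ratio of 0.24 (-0.07 to 0.56). The split was chosen after the data were seen.

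The barcodes left out of every comparison (1221 in 4T1P and 1543 in 4T1M, outside the limits on genes or mitochondrial UMIs) also held the 10 genes, at 796 CPM (778 to 815) in 4T1P and 1584 CPM (1549 to 1619) in 4T1M, in the same direction as the retained cells. They were not split by class, and 136 in 4T1P and 49 in 4T1M had more than 5000 genes. The part of their cell mix in this difference was not tested.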

How the results depend on the processing

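Of 280 log2 ratios of single genes computed under the alternatives, 210 differed from the reported value, since several alternatives leave a gene's sums as they are. Of these 210, 31 lay outside the counting interval of the reported value, and 209 were above 0, the exception being Bst2 in neutrophils without C1q or Apoe UMIs (-1.23). Over the alternatives, the median over the 10 genes ranged from 0.91 to 1.17 in neutrophils and from 0.81 to 1.25 in macrophages, the upper value with macrophage genes of at least 1% (1.25), and the number past 1.5-fold higher from 7 to 8 and from 8 to 9. Among all genes, the number past 1.5-fold higher ranged from 602 to 2755 in neutrophils and from 389 to 3023 in macrophages. Shares of all genes under each alternative are not given, so the counts of the 10 genes have no background there. The counts of the 10 genes also do not hold the same genes. In macrophages, Ifit3 fell within 1.5-fold with the mean of per-cell CPM (0.49), Ifit3b with a mitochondrial limit of 5% (0.26) and Isg20 without an upper limit on genes (0.55), whereas Ifit2 went past it with the mitochondrial limit of 5% (0.70). In neutrophils, Isg20 went past it without C1q or Apoe UMIs (0.69), and Bst2 under 6 alternatives, at 0.67 to 1.17. TMM and DESeq2 scaling shifted every log2 ratio by -0.04 and -0.05 in neutrophils and by 0.03 and 0.03 in macrophages. The median share part ranged from 0.59 to 1.09 in neutrophils and 0.64 to 0.98 in macrophages, and the part from UMIs per positive cell from -0.02 to 0.22 and from -0.11 to 0.11.

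The log2 ratio of the share of macrophages with 3 or more genes was 1.57 at 1000 UMIs, 0.93 at 500 UMIs and 0.65 without thinning. With another random seed at 1000 UMIs it was 1.77 (3.11% and 10.8% of macrophages), the highest value over the alternatives. Counts over all genes followed the minimum of UMIs. With a minimum of 50 UMIs, 602 genes were past 1.5-fold higher and 210 lower in neutrophils, and 389 and 400 in macrophages. With no minimum the counts were 2755, 3393, 3023 and 3077. With the mean of per-cell CPM, 1424 macrophage genes were past it higher, and without an upper limit on genes 1754 were past it lower. In the alternative with S100a8 and S100a9 of at least 1%, macrophages lay below the same limit. Removing cells with plasmacytoid markers and removing the highest cell per gene were chosen after the data were seen. The former also left out 166 of 798 macrophages of 4T1P and 159 of 976 of 4T1M. In macrophages, Tcf4 made up 1045 of 1103 and 970 of 1065 UMIs of these markers, and Siglech 1 and 0. The limit of 3 UMIs therefore does not mark plasmacytoid dendritic cells among macrophages. No paired analysis was possible because the labels carry no replicate numbers and each condition is 1 library. Depth limits Ifit3b in macrophages (7 and 22 UMIs), and batch and condition cannot be told apart.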

Other observations

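The ISRE core was also counted in the promoters of the genes beside the 10. It was present in 5 of the 8 genes most alike in neutrophils that were matched in RefSeq and in 4 of the 7 most alike in macrophages, in 6 of 10 other antiviral effectors, in 4 of 20 other interferon-stimulated genes, in 2 of 6 nucleic acid sensors, in 7 of 13 interferon ligands, in 2 of 12 receptor and signaling genes and in 0 of 5 genes of ISG15 conjugation, against 3.99% of all genes in the table. The gamma-activated site core, searched as TTCNNNGAA, was present in 3 of the 9 matched genes of the group (Ifit2, Isg20 and Bst2), against 9.55% of all genes. A match says only that the letters occur in the window.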
